A study of Mus musculus with 8 samples.

Results

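Retained intragenic CHD4 sites were places deep inside genes where a CHD4 peak was called in both the control and the TBX5 KO atria. Peaks of the 4 lists that shared 1 bp or more were joined into a site. A site was selected on its calls, its place and its control peak widths: it lay on an autosome, was called in all 4 lists, lay whole inside a protein-coding gene, was at least 10 kb from both ends of every protein-coding gene, and had no control peak of 5000 bp or more. By this rule 10858 of 121267 sites were chosen. Because the calls of both groups chose them, "retained" says only that a peak was still called in both TBX5 KO lists, and all levels below are descriptions without a test.

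CHD4 ChIP-seq, which sequences DNA bound by the protein, was done on frozen right and left atria of mice, whose cells are labelled as mixed. All mice carried floxed Tbx5 alleles (TBX5 flox/flox) on both chromosomes, and each group received an AAV9 vector on postnatal day 2: AAV9:Nppa-EGFP in control and AAV9:Nppa-Cre, which removes floxed DNA, in TBX5 KO. There were 2 ChIP libraries a group and 4 input libraries, and the inputs were not analysed here on their own. The Nppa sequence limits Cre to cells that use this promoter, mainly atrial cardiomyocytes, so other cells of the tissue keep Tbx5. Groups follow the sample titles. Other labels contradict them: genotype and treatment are given the other way round, and CHD4 is named as the gene removed. Every direction here therefore depends on the titles being right. Nothing in the labels says that replicates came from separate animals, so the spread between them may be technical. With 2 libraries against 2, the smallest exact permutation p for a single site is 0.333.

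CHD4 is the ATP-driven motor of the NuRD complex, which slides nucleosomes and brings histone deacetylases to chromatin. DNA-binding proteins bring it to genes. TBX5, a T-box factor, keeps atrial cardiomyocyte genes active, and the design asks where CHD4 sits with and without it. Sites inside genes include enhancers of the host or of a neighbour as well as alternative promoters, which start shorter transcripts of the same gene.

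The strongest of these sites often sat on such an internal start. Ranked by the mean percentile of −log10 p over the 4 lists, 7 of the 10 strongest retained intragenic sites held an annotated transcription start of their own host gene, and the sequence around that start is shown here because these sites ranked highest by that measure; some other sites had a higher enrichment. Each run covers 250 bases before to 50 bases after the start, 5′ to 3′ on the strand of the gene, from RefSeq for GRCm38.p6, the assembly behind mm10. Where a site held several starts, the one nearest the peak summits was taken. Capitals mark matches to any of 14 short motifs searched on both strands.
Iffo2, chr4:139574470-139574769, plus strand: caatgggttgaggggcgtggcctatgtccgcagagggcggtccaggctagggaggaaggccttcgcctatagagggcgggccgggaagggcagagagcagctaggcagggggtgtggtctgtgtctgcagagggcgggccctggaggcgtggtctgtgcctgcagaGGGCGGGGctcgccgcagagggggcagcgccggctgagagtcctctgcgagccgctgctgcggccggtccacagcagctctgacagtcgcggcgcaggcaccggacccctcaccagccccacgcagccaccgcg
Rbpj, chr5:53590096-53590395, plus strand: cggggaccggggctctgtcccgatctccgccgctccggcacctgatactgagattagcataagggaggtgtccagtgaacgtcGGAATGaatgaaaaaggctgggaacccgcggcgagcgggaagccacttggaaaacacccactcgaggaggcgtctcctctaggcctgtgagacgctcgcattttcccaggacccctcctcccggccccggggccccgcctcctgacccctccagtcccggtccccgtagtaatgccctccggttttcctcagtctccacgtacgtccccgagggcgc
Por, chr5:135688895-135689194, plus strand: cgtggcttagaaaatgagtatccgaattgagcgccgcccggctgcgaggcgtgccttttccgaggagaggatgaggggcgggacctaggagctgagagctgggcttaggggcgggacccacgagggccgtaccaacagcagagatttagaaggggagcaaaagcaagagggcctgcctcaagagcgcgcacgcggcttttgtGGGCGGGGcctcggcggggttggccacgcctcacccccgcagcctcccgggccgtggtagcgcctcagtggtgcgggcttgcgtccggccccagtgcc
Hk1, chr10:62340372-62340671, minus strand: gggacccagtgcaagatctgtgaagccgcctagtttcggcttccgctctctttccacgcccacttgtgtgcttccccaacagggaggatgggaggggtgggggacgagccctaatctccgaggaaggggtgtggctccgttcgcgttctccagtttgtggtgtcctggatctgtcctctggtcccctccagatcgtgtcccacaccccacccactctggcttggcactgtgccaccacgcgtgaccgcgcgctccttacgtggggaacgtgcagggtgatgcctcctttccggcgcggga
Stag1, chr9:100643198-100643497, plus strand: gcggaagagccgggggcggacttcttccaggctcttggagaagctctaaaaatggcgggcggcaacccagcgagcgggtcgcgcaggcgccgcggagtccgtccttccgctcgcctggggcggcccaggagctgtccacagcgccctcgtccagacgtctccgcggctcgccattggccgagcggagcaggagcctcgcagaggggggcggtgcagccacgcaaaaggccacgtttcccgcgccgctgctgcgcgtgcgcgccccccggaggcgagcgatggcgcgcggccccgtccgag
Itprid2, chr2:79635175-79635474, plus strand: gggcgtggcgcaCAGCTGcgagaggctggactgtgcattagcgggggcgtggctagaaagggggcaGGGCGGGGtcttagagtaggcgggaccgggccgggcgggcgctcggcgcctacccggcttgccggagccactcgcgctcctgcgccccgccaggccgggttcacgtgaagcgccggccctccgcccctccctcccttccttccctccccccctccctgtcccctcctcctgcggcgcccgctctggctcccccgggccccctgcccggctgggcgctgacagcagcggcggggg
Rps6ka2, chr17:7169865-7170164, plus strand: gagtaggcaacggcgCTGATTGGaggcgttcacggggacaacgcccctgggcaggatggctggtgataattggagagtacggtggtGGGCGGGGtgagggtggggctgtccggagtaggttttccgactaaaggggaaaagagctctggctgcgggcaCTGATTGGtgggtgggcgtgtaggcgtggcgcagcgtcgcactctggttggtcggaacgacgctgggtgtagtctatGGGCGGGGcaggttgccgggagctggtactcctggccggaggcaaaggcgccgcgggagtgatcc
In these runs the capitals are GGGCGGGG, a GC box bound by SP and KLF factors, in Iffo2, Por, Itprid2 and Rps6ka2, and GGAATG, the TEAD letters, in Rbpj. No match overlapped another in these runs. Itprid2 also held an E-box, CAGCTG, and Rps6ka2 held 2 matches to CCAATNNG, the NFY letters. The windows of Hk1 and Stag1 held none of the 14 motifs. GC content was between 63.3% in Hk1 and 77.0% in Itprid2, against a median of 57.0% over all 20085 protein-coding start windows on autosomes.

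At the Rbpj start the site gave the highest control pileup of the set, the number of overlapping fragments at the summit. RBPJ is the DNA-binding factor of Notch signalling. Control replicates 1 and 2 had pileups of 305 and 281, and TBX5 KO replicates 1 and 2 had 163 and 178. Summits lay 38 to 67 bp from the start in the 4 libraries. Divided by the genome background of each library, these are enrichments of 30.2 and 27.4 in control against 15.3 and 13.3 in TBX5 KO, so the groups did not overlap and the TBX5 KO mean was 0.496 of the control mean. A 95% interval for the pooled ratio ran from 0.43 to 0.564, and this interval, like others below, covers counting error only.

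Chd9, which encodes another chromodomain helicase, held the strongest site by rank although no annotated start of the gene lay in it. Enrichments there were 29.3 and 24.7 in control against 14.1 and 15.5 in TBX5 KO. Por, the reductase that feeds electrons to cytochromes P450, had 26.8 and 27.2 in control against 13.5 and 16.3 in TBX5 KO. Both sites kept a peak of at least 1931 bp in every library, and in both the groups stood apart with TBX5 KO lower. Stag1, a cohesin subunit, had 28.2 and 21.9 in control against 12.3 and 12.5 in TBX5 KO. Hk1, the hexokinase that starts glucose use, had 25.3 and 22.9 in control against 13 and 12.2 in TBX5 KO. Acacb, the acetyl-CoA carboxylase that limits fatty acid entry into mitochondria, had 26.7 and 19.9 in control against 13.8 and 12.3 in TBX5 KO. In these 3 genes too, the TBX5 KO libraries lay below both control libraries, as at 88.1% of all autosomal sites of all 4 lists. The remaining strong sites, in Iffo2, Stard13, Itprid2 and Rps6ka2, had ratios of 0.473 to 0.583, a span that holds the ratios of all 10.

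**Figure D1:**
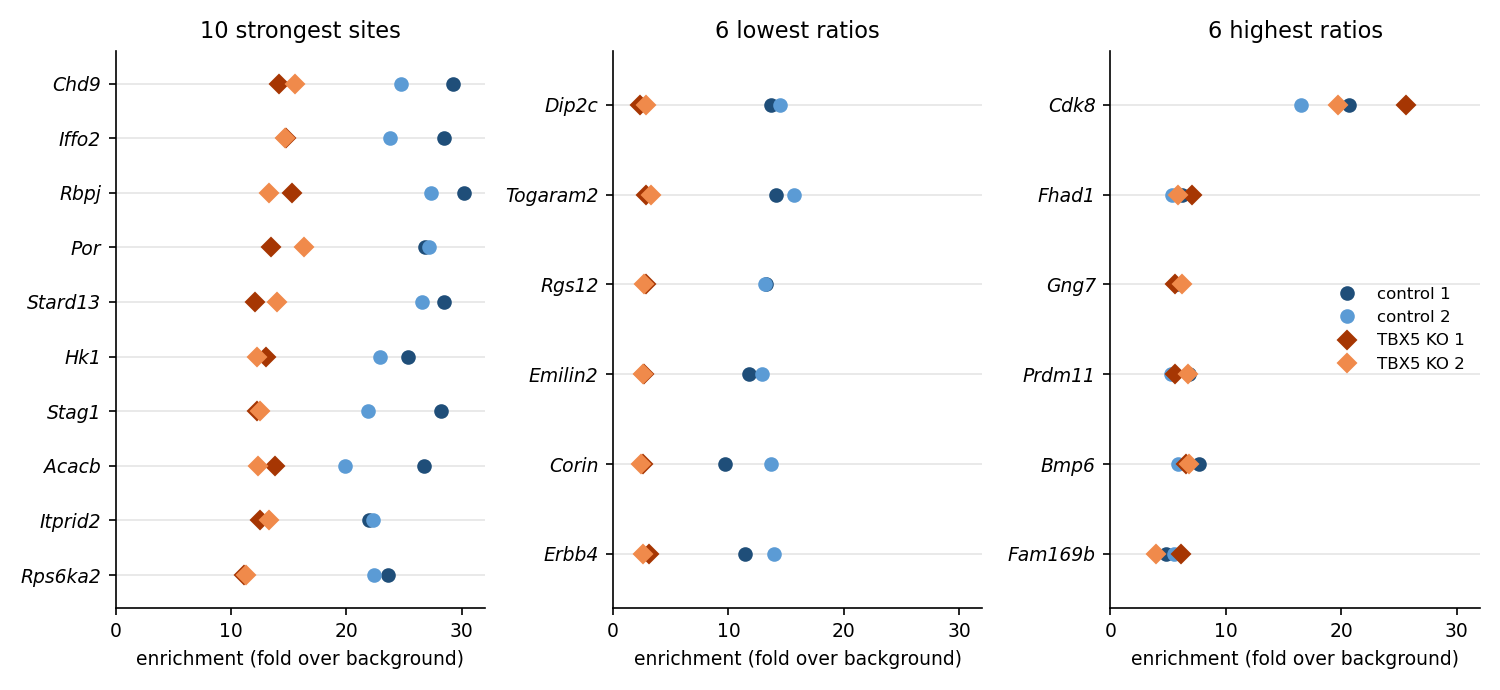
Enrichment over genome background (horizontal axis, fold) of single retained intragenic sites, 1 row a gene, with a point for each library: circles are the 2 control and diamonds the 2 TBX5 KO libraries. In the 10 strongest sites and in the 6 with the lowest ratios all diamonds lie left of all circles, whereas at Cdk8 the ratio was 1.22. Both TBX5 KO libraries lay below both controls at 88.1% of all autosomal sites of all 4 lists. The lowest ratios were chosen on the values shown.

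Over all 10858 sites the CHD4 signal was lower in TBX5 KO than in control, although every site kept its call. The median pileup was 53 and 51 in control replicates 1 and 2 and 36 and 45 in TBX5 KO replicates 1 and 2. The genome background of a library, the commonest local background among its peaks, was 10.1, 10.3, 10.7 and 13.4 in the same order. Total read numbers are unknown, so how far it follows depth cannot be checked. Enrichment, pileup over that background, had medians of 5.24 and 4.96 in control against 3.37 and 3.36 in TBX5 KO. The control median was thus 5.10 ± 0.195 (SD, n = 2) and the TBX5 KO median 3.36 ± 0.00888 (SD, n = 2), a gap several times the spread between replicates. In bulk tissue, CHD4 bound in fewer cells and less CHD4 bound per cell cannot be told apart. Neither can be told from a library-wide difference in how well the ChIP worked. Of the 10858 sites, 9363 (86.2%) had both TBX5 KO libraries below both control libraries and 80 (0.737%) had both above. Among all 37678 autosomal sites called in all 4 lists, a set without the width limit, the same counts were 88.1% and 0.677%. The intragenic sites thus stood near the background of the series, and nothing particular to them is read from these counts.

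The TBX5 KO over control ratio of enrichment had a median of 0.666 across the sites, and 0.640 to 0.687 across the 4 pairings of a TBX5 KO with a control library. The lowest 10% of sites lay under 0.479 and the highest 10% over 0.893. A ratio under 0.5 was found at 1400 sites (12.9%) and a ratio of 1 or more at 356 (3.28%). Sites called in all 4 lists within 1 kb of a gene end had a median ratio of 0.618, and those at least 10 kb outside genes 0.659. Over all autosomal sites called in all 4 lists it was 0.646, so the lower level was not particular to the intragenic sites.

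**Figure D2:**
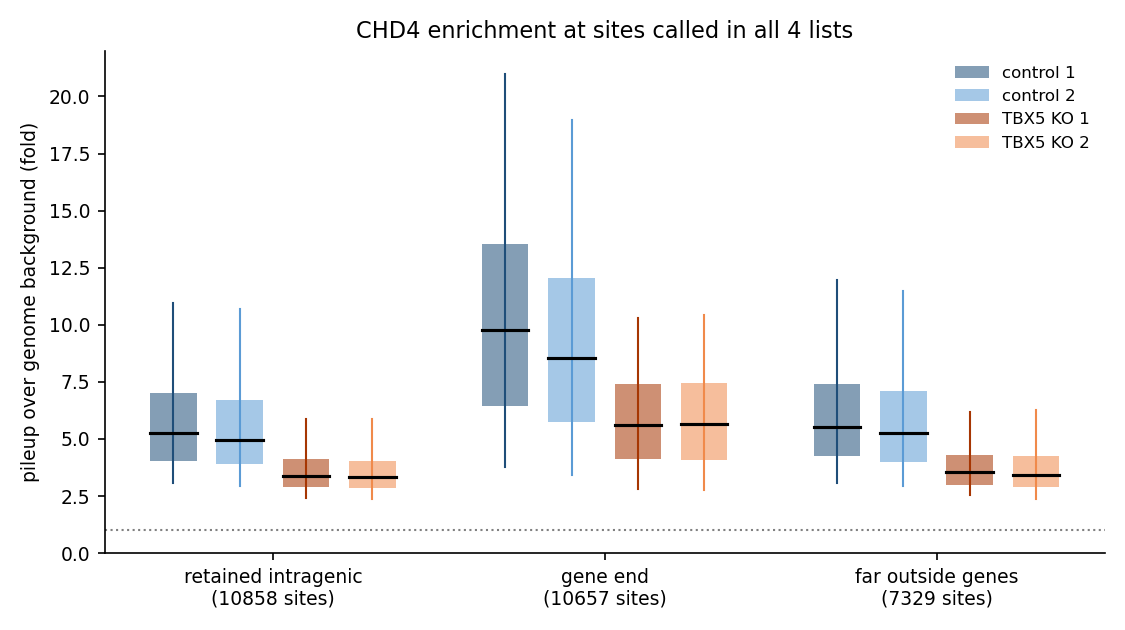
CHD4 enrichment (vertical axis, pileup over genome background) in each library for 3 classes of site called in all 4 lists; boxes span the 25th to 75th percentile, thin lines the 5th to 95th, black bars the median, and the dotted line marks background. Retained intragenic sites had medians near 5 in control against 3.4 in TBX5 KO, below the gene-end sites, whose medians were 9.79 and 8.57 in control.

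The peaks themselves were narrower in TBX5 KO. Median widths were 1070.5 and 969 bp in control and 589 and 696 bp in TBX5 KO. Both TBX5 KO peaks were narrower than both control peaks at 6107 sites (56.2%), against 54.9% over all autosomal sites of all 4 lists. The median distance between summits was 62 bp between the control libraries and 96 bp between the TBX5 KO libraries. Between a control and a TBX5 KO library it was 82 to 87 bp. Control and TBX5 KO summits lay within 100 bp at 54.6% to 56.9% of sites. The share was 66.2% between the control libraries and 51.5% between the TBX5 KO libraries. Several peaks within a site were found at 10.9% and 12.9% of sites in control and at 16% and 16.4% in TBX5 KO.

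Of 23705 intragenic sites called in both control lists, 10858 (45.8%, 95% Wilson interval 45.2% to 46.4%) were called in both TBX5 KO lists, 22.8% in 1 of them and 31.4% in none. In lists of equal length the share was 59.6%. With only 1 TBX5 KO library required it was 61.2% when the first was left out and 53.2% when the second was, and with a control library left out it was 35.5% (the first) and 32.2% (the second). With all 4 lists in use, the share was 85.1% within 1 kb of a gene end, 50.7% at least 10 kb outside genes and 56% over all 67328 autosomal sites of both control lists. Only the last set includes sites with a control peak of 5000 bp or more. Control signal differed between these places: at the sites of all 4 lists, median control enrichment was 5.10 ± 0.195 deep in genes and 9.18 ± 0.865 (SD, n = 2) at gene ends. Set beside each other within bands of control enrichment, intragenic sites between 4 and 6 kept their call at 59.2%, gene-end sites at 84.5% and sites far outside genes at 61.1%. Between 8 and 12 the shares were 94.0%, 99.8% and 94.0%. Intragenic sites thus lay close to the sites far outside genes in each of these bands and below the gene ends.

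The ratio moved with the control level. Retained intragenic sites with control enrichment between 3 and 4 had a median ratio of 0.817, those between 4 and 6 had 0.677, and those between 8 and 12 had 0.520. At 16 or more it was 0.499. Control values enter both sides of this relation, and a weak control site had to stay near its control level to be called in TBX5 KO at all, so the slope is partly set by the rule. Between 8 and 12, where nearly every site kept its call, gene-end sites had a median ratio of 0.609 and intragenic sites 0.520.

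**Figure D3:**
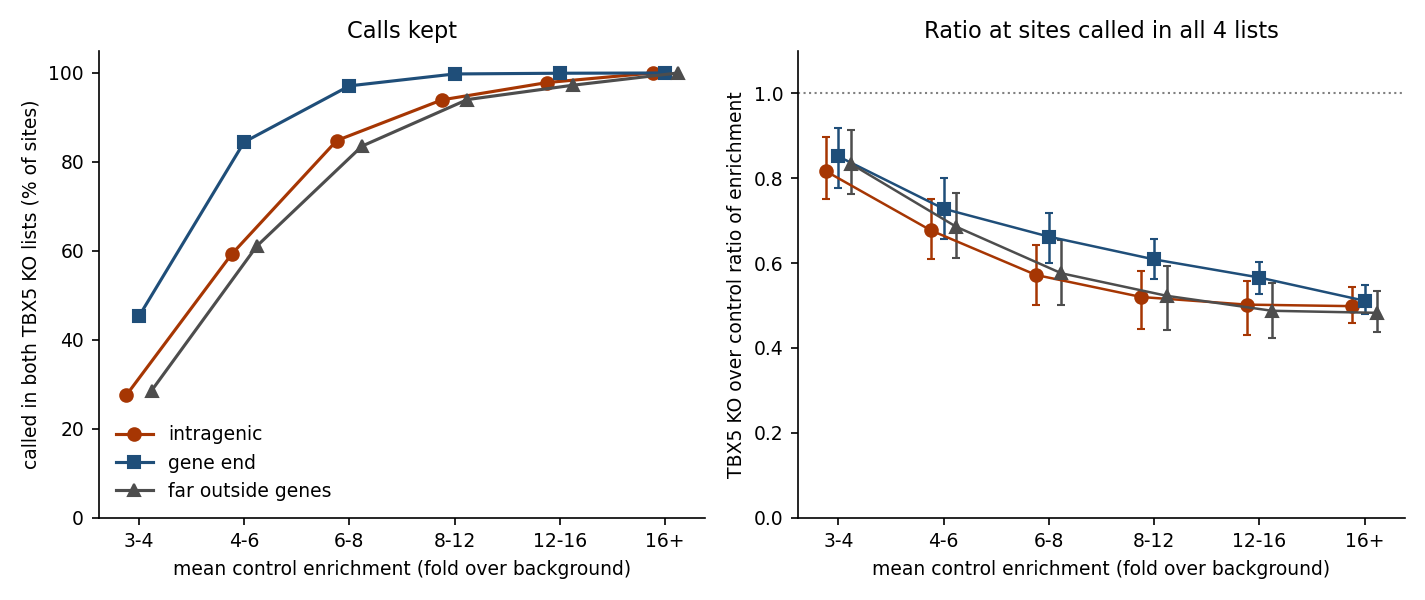
Left, the percent of sites of both control lists that were also called in both TBX5 KO lists, by mean control enrichment (horizontal axis, fold over background) and place; right, the median TBX5 KO over control ratio at the sites called in all 4 lists, with bars from the 25th to the 75th percentile. Intragenic sites run close to the sites far outside genes and, below a control enrichment of 16, under the gene ends, and the ratio is lower where control enrichment is higher.

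The limits of the rule cut through a continuum. The member nearest to a gene end lay 10003 bp from it and the nearest site left out 9998 bp; the widest control peak of a member measured 4995 bp and the narrowest left out 5007 bp. The 388 members within 1 kb of the distance limit had a median ratio of 0.684, and the 350 in-gene sites within 1 kb on its other side had 0.677.

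Internal starts recurred well beyond the strongest sites. An annotated start of the host lay in 421 of the 10858 sites (3.88%), and a start of a long noncoding RNA in 171. Among intragenic control sites called in 1 TBX5 KO list 0.648% held a host start, and among those called in neither 0.443% did. Sites with a host start had median enrichments of 8.11 and 7.01 in control against 4.68 and 4.70 in TBX5 KO. The 10298 sites without any listed start had 5.14 and 4.96 in control against 3.37 and 3.28 in TBX5 KO. Median ratios were 0.629 and 0.669. Both TBX5 KO libraries lay below both controls at 381 (90.5%) of the sites with a host start, and both lay above at none, beside 88.1% and 0.677% over all sites of all 4 lists.

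The share that kept its call was larger for sites on internal starts than for other intragenic sites of similar control strength. With control enrichment between 3 and 4, 33 of 60 sites with a host start (55%) were retained, against 27.3% of 8131 without one. Between 4 and 6 the shares were 81.8% of 121 and 58.8% of 7215, and between 6 and 8 they were 96.9% of 96 and 84.3% of 2413. A wider site is more likely to cover a start, so widths were set beside this too: with a mean control width between 500 and 1000 bp, 69.9% of 123 sites with a host start and 40.9% of 10152 without one were retained. Between 1000 and 2000 bp the shares were 91.1% of 192 and 74.1% of 5276. The retained share uses the calls that chose the sites, and these differences were not tested.

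**Figure D4:**
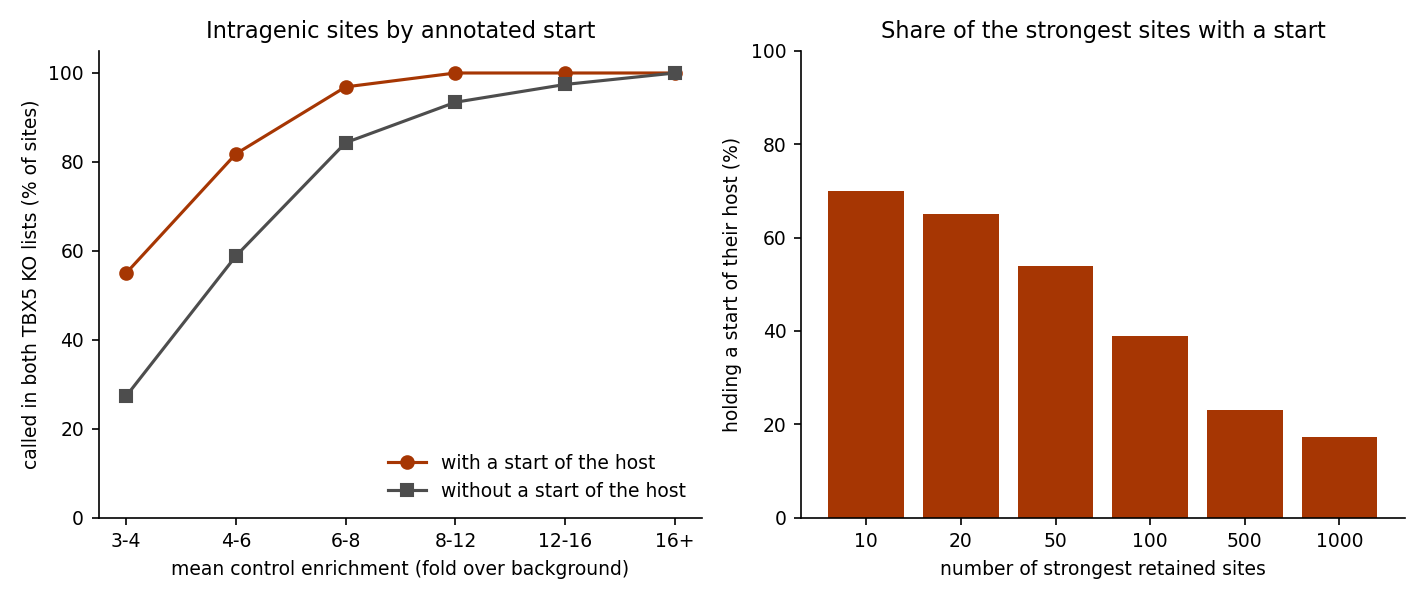
Left, the percent of intragenic sites of both control lists that were also called in both TBX5 KO lists, by mean control enrichment (horizontal axis, fold over background), for sites with and without an annotated start of the host; right, the percent of the strongest retained sites that hold such a start. The line with a start lies above the other up to enrichments of 16, and the share with a start goes from 70% of the 10 strongest sites to 17.2% of the 1000 strongest.

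Internal starts in retained sites were richer in GC than those in no site. RefSeq lists 1419 protein-coding start windows at least 10 kb from every gene end inside their own gene. Of these, 472 (33.3%) lay in a retained intragenic site, 156 in another site of both control lists, 54 in a site of fewer control lists and 737 (51.9%) in no site. Median GC content was 59.0% in the retained sites, 55.7% in other sites of both control lists, 52.3% in sites of fewer control lists and 48.3% where no site lay. A ratio of observed to expected CpG of at least 0.6, a usual mark of a CpG island, was found in 48.9%, 34%, 13% and 9.23% of these in the same order, and in 48.9% of all 20085 protein-coding start windows. By that measure the internal starts under retained sites stood level with all starts.

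GC-rich motif letters were among those found in a larger share of the windows under retained sites than of those without a site. The GC box GGGCGGGG was in 30.5% of the 472 windows under retained sites, in 8.68% of the 737 without a site and in 24.1% of all 20085. The ETS letters CCGGAAGT were in 4.24%, 0.543% and 5.28% of the same 3 sets, and the NRF1 letters GCGCATGCG in 1.48%, 0.136% and 2.37%. For the cyclic AMP response element TGACGTCA the shares were 1.91%, 0.814% and 2.30%, for the CTCF letters AGGGGGCGC 1.91%, 0.271% and 1.77%, and for NFY 15.3%, 12.8% and 15.8%. These letters are rich in G and C or typical of promoters. The T-box letters AGGTGTNA were in 6 (1.27%) of the windows under retained sites, in 2.99% of those without a site and in 2.80% of all. For the other factors of heart muscle genes, the GATA letters AGATAA were in 6.78%, 11.7% and 9.57%, the MEF2 letters CTANNNNTA in 14.8%, 25.5% and 18.8%, and the TEAD letters in 14.4%, 16.6% and 13.4%. The NKX2 letters TNAAGTG were in 11.2%, 14.5% and 10.8%, the AP-1 letters TGANTCA in 7.42%, 10.4% and 7.06%, the E-box in 19.7%, 20.5% and 15.6%, and the estrogen-related receptor letters TCAAGGTCA in 0.424%, 0.678% and 0.339%. A match says only that the letters are present in a window of 300 bases, and the sites away from starts were not searched.

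The 10858 sites lay in 2883 host genes, out of 9575 autosomal protein-coding genes longer than 20 kb. Exactly 1 site was found in 1140 hosts, 719 hosts had at least 5, and the 264 hosts with at least 10 held 37.2% of all sites. Longer genes had more sites, with a Spearman rank correlation of 0.464 and a Pearson r of 0.317 over the 2883 hosts, which share the libraries and are not independent. The next site in the same host lay a median of 6499.5 bp away, and 43.9% of these gaps were 5 kb or less. The median distance to the nearest gene end was 36137 bp and the largest 617473 bp. In hosts of at least 100 kb the sites were spread along the whole body: each 10% step between 10% and 90% of the gene held 10.5% to 12% of them.

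Nfia, a nuclear factor I transcription factor, held the most: 49 of its 70 intragenic control sites were retained (70%), 11 were called in 1 TBX5 KO list and 10 in none. Its sites had median enrichments of 5.14 and 5.16 in control against 3.46 and 3.43 in TBX5 KO, and 44 of the 49 had both TBX5 KO libraries below both controls. Over all autosomal sites of all 4 lists 88.1% did, a share close to that of Nfia, so nothing particular to Nfia is read from this count. Arhgap26, a GTPase-activating protein, kept 47 of 83. Gse1 kept 40 of 65, and Msi2, an RNA-binding protein of the Musashi family, 37 of 67. Pakap kept 37 of 59 and Rad51b, a recombination factor, 36 of 53. The forkhead factor Foxp1 kept 34 of 56 and the nuclear receptor Rora 29 of 68. Fndc3b and Frmd4a had 30 each, of 61 and 57. Sgms1, which makes sphingomyelin, kept 29 of 44. Itga9, an integrin chain, kept 29 of 36, and just 1 of its control sites was called in neither TBX5 KO list. Among these 12 genes the median ratio was highest in Itga9, at 0.810, and lowest in Fndc3b, at 0.597.

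**Figure D5:**
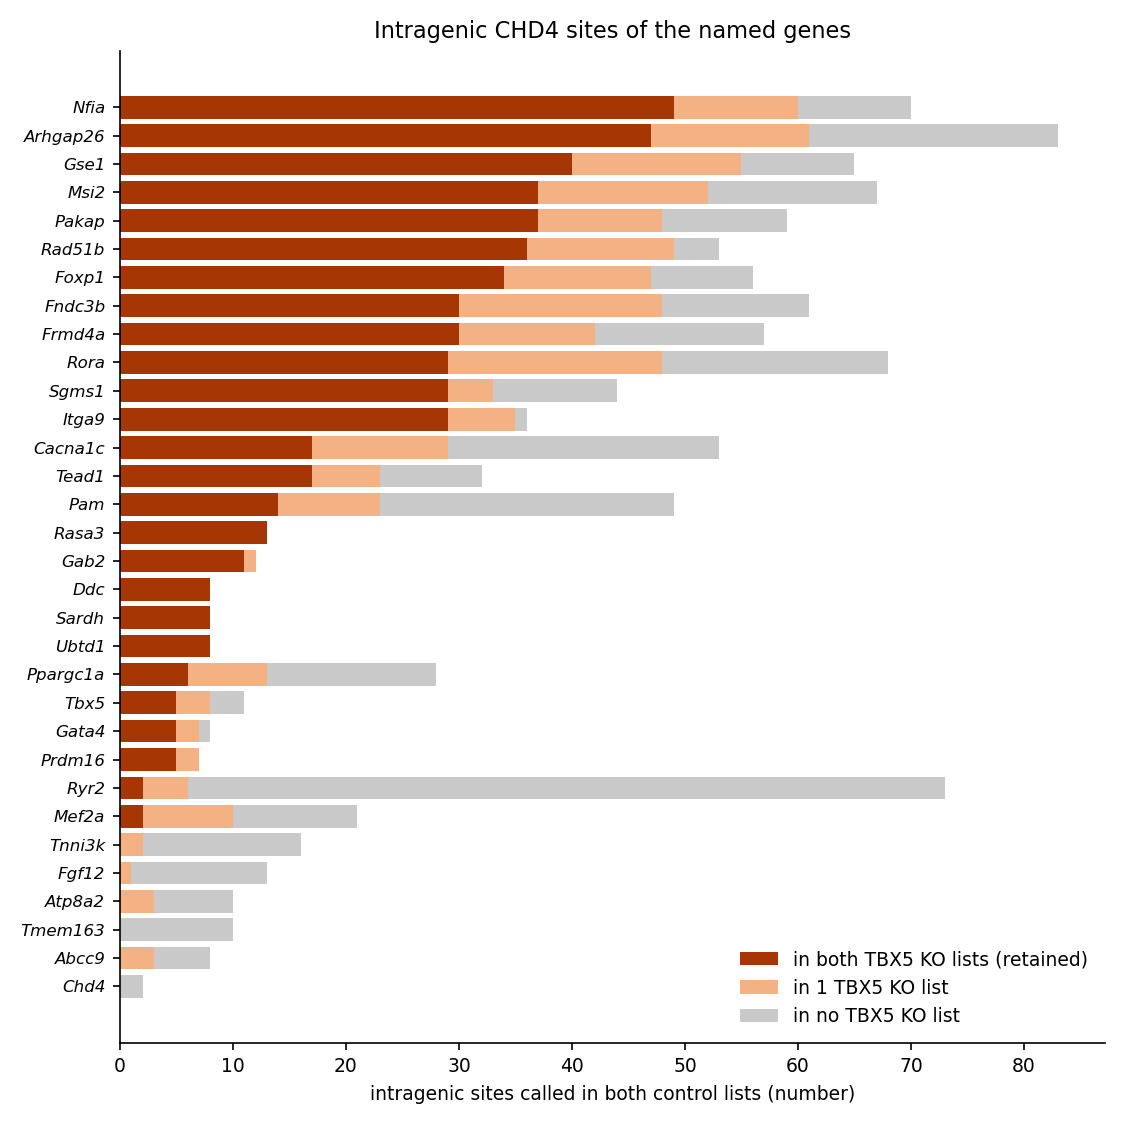
Number of intragenic sites called in both control lists (horizontal axis) for each named gene, split by whether both, 1 or none of the TBX5 KO lists held a peak. Nfia has 49 retained sites of 70, Ryr2 has 2 of 73, and Tnni3k, Fgf12, Atp8a2, Tmem163, Abcc9 and Chd4 have none.

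Genes differed widely in how many of their sites stayed called. Over all intragenic sites this share was 27.5% at control enrichments between 3 and 4 and 94.0% between 8 and 12. The shares of single genes below are not matched for control enrichment, and how far it bears on them was not tested. Among the 918 genes with at least 8 intragenic control sites, 4 kept all and 6 kept none. Rasa3, a GTPase-activating protein for Ras, kept 13 of 13, which allows a share from 77.2% (Wilson). Ddc, the decarboxylase that makes dopamine and serotonin, and Sardh, a mitochondrial sarcosine dehydrogenase, kept 8 of 8, as did Ubtd1. Gab2, a docking protein of receptor signalling, kept 11 of 12. At the other end Tnni3k, a kinase that binds cardiac troponin I, kept 0 of 16. Fgf12, which tunes sodium channels, kept 0 of 13, Atp8a2 and Tmem163 kept 0 of 10 each, and Abcc9, the regulatory subunit of the cardiac ATP-sensitive potassium channel, 0 of 8. Of these 5 genes, Tmem163 had all 10 sites absent from both TBX5 KO lists.

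Ryr2, the calcium release channel of the sarcoplasmic reticulum, had 73 intragenic control sites, and 2 (2.74%) were retained. Its stronger remaining site by control pileup, at chr13:12035959-12039012, had pileups of 68 and 83 in control against 26 and 30 in TBX5 KO, a ratio of 0.315. The other, at chr13:12001097-12003127, had 49 and 56 in control against 28 and 37 in TBX5 KO. So even the sites that stayed called in Ryr2 were low in both TBX5 KO libraries. Cacna1c, the pore of the L-type calcium channel, kept 17 of 53 with a median ratio of 0.564. Mef2a, a transcription factor of muscle genes, kept 2 of 21, and Ppargc1a, the coactivator of mitochondrial genes, 6 of 28. Pam, which amidates peptides in atrial granules, kept 14 of 49. Tead1 kept 17 of 32 and Prdm16 kept 5 of 7. Chd4 itself had 2 intragenic control sites, neither retained, and Gata6 had no intragenic control site under the rule.

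Tbx5, the gene that Cre cuts, kept 5 of its 11 intragenic control sites. At the strongest of them, chr5:119836379-119840834, the pileup was 65 and 82 in control against 37 and 49 in TBX5 KO, with a ratio of 0.494. The weakest difference was at chr5:119807617-119812536, with 48 and 42 in control against 34 and 40 in TBX5 KO. At these 5 sites ratios ran from 0.480 to 0.698. All 5 had both TBX5 KO enrichments below both control ones, as had 88.1% of all autosomal sites of all 4 lists. Whether any of the 5 lies in the floxed DNA was not tested. Removed DNA and less bound CHD4 cannot be told apart by these pileups. Gata4, the zinc-finger partner of TBX5, kept 5 of 8. Its strongest site, chr14:63254715-63257151, had 87 and 95 in control against 60 and 66 in TBX5 KO, a ratio of 0.590. Control enrichment there was 8.92 ± 0.456 and TBX5 KO enrichment 5.27 ± 0.489 (SD, n = 2).

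Some retained sites were far weaker in TBX5 KO. Among the sites above the median control enrichment, the lowest ratio was in Dip2c at chr13:9566242-9570051: pileups were 138 and 149 in control against 25 and 38 in TBX5 KO. Its peak was 3480 and 1765 bp wide in control and 277 and 377 bp in TBX5 KO. Enrichment was 14.1 ± 0.607 in control against 2.59 ± 0.35 in TBX5 KO (SD, n = 2), a ratio of 0.184 with a 95% counting interval of 0.139 to 0.245 for the pooled pileups. Corin, the protease that activates atrial natriuretic peptide, had pileups of 98 and 141 in control against 28 and 33 in TBX5 KO at its lowest site, a ratio of 0.217. Erbb4, the neuregulin receptor of cardiomyocytes, had 116 and 143 in control against 33 and 35 in TBX5 KO, a ratio of 0.224. Both genes kept few sites, Corin 3 of 36 and Erbb4 1 of 12. Togaram2, a microtubule-binding protein, Rgs12, a regulator of G-protein signalling, and Emilin2, a glycoprotein of the extracellular matrix, had ratios of 0.207, 0.212 and 0.215. In all 6 the TBX5 KO enrichments lay between 2.34 and 3.28, while 5% of all retained sites lay under 2.43 in TBX5 KO replicate 1 and under 2.39 in replicate 2.

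At the other extreme few strong sites were higher in TBX5 KO. Cdk8, the kinase of the Mediator complex, held the highest ratio of the sites above the median control enrichment: pileups were 209 and 170 in control against 274 and 265 in TBX5 KO. Enrichments were 20.7 and 16.5 in control against 25.6 and 19.8 in TBX5 KO, so the groups overlapped. This peak was 320 to 349 bp wide in every library, and its local background was 66.0, 66.4, 58.6 and 62.7, several times the genome background. The authors' fold over that local background was 3.13 and 2.54 in control against 4.62 and 4.18 in TBX5 KO. Fhad1 had pileups of 63 and 55 in control against 76 and 78 in TBX5 KO, a ratio of 1.12 with a counting interval from 0.863 to 1.42. The sites in Gng7, a G-protein gamma subunit, Prdm11, Bmp6, a bone morphogenetic protein, and Fam169b had ratios of 1.04, 1.02, 0.984 and 0.965. In Bmp6 the enrichment was 7.71 and 5.84 in control against 6.55 and 6.79 in TBX5 KO, with both TBX5 KO libraries between the controls.

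Host genes also differed in how far their retained sites were lowered. Among the 377 hosts with at least 8 retained sites, a group formed after the values were seen, the median ratio of a gene ran from 0.422 in Tmem108 to 0.930 in Ddc. It was under 0.5 in 5 hosts, Tmem108, Dip2c, Rgs6, Slco3a1 and Ptprm, and reached 1 in none. Tmem108 had median enrichments of 8.01 and 7.20 in control against 3.46 and 2.91 in TBX5 KO. Ddc had 4.30 and 4.43 in control against 3.70 and 3.84 in TBX5 KO. Tmem108 was thus higher than Ddc in control, while in TBX5 KO both lay near the same level. The ratio also moved with the control level over all the sites, a slope partly set by the rule. Whether these genes differ beyond that was not tested. Ahnak, a giant scaffold protein at the cell membrane, kept 12 of 15 sites with a median ratio of 0.858, and its enrichments were 3.71 and 3.31 in control against 3.51 and 3.09 in TBX5 KO.

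Counts in 19 gene lists, chosen by tissue and pathway, are given beside the 45.8% of all intragenic control sites. The lists are not matched for control enrichment, with which the share that kept its call rose. In the calcium handling list 101 of 318 intragenic control sites were retained (31.8%, Wilson 26.9% to 37.1%), with sites in 15 of its 21 genes. Ion channels kept 32 of 106 (30.2%), and sarcomere and Z-disc genes kept 109 of 282 (38.7%). These 3 lists of cardiomyocyte genes lay below the share of all intragenic sites. So did lists of other genes, among them chromatin regulators (36.6%, Wilson 29.6% to 44.2%) and neuronal and Schwann genes (25%). Ryr2 alone holds 73 of the 318 calcium handling sites, and without it the share was 99 of 245 (40.4%, 34.5% to 46.7%), an interval that holds the share of all. Without Kcnq1 the ion channels kept 20 of 86. Sites of 1 gene share their source, so these intervals are too narrow for a list of genes. Within them genes went apart: Itpr1, the inositol trisphosphate receptor, kept 22 of 38, Camk2d, a calcium-dependent kinase, 13 of 27, Kcnq1, a repolarizing potassium channel, 12 of 20, and Kcnd3, a transient outward potassium channel, 5 of 17. The median ratio of the sites in Kcnd3 was 0.504. Palld, an actin-binding protein, kept 15 of 43, and Fhod3, a formin of the sarcomere, 12 of 36 with a median ratio of 0.504. Ttn, the giant sarcomere spring, kept 3 of 22, not counting 11 more Ttn sites of all 4 lists that only the limit on control peak width left out.

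Shares were larger in the endothelial, fibroblast and TGF-beta, BMP and Wnt lists. Endothelial genes kept 58 of 105 (55.2%, Wilson 45.7% to 64.4%), fibroblast genes 26 of 49 (53.1%, 39.4% to 66.3%) and the TGF-beta, BMP and Wnt list 142 of 267 (53.2%, 47.2% to 59.1%). The share of all intragenic sites, 45.8%, lay within the first 2 intervals and below the last. Without Tgfbr3 the last was 52.5% (46.2% to 58.8%). Erg, an ETS factor of endothelium, kept 11 of 15, Ets1 10 of 17, Tek, the angiopoietin receptor, 6 of 7 and Ptprb, the vascular endothelial phosphatase, 6 of 6. Other endothelial genes lay below the share of all intragenic sites: Flt1 kept 5 of 15, Pecam1 4 of 10, Npr3 3 of 11 and Cdh5 0 of 2. Vwf, with 5 of 9, and Notch1, with 5 of 8, lay above it. Fbn1, the main protein of microfibrils, kept 14 of 26. In the signalling list Tgfbr3, a TGF-beta coreceptor, kept 18 of 31, Smad3, which carries the TGF-beta signal to the nucleus, 17 of 23 and Acvr1, a BMP receptor, 14 of 22. Genes of that list also went the other way: Bmpr1a kept 7 of 18, Ror2 2 of 12 and Smad2 0 of 5, while Lrp5 kept 7 of 8. At the retained sites alone, median control enrichments were 5.88 and 5.21 for endothelial, 5.44 and 5.79 for fibroblast, 4.94 and 4.72 for TGF-beta, BMP and Wnt and 5.73 and 5.45 for calcium handling genes. In TBX5 KO they were 3.37 and 3.32 for endothelial, 3.46 and 3.54 for fibroblast, 3.42 and 3.28 for TGF-beta, BMP and Wnt and 3.37 and 3.13 for calcium handling genes. Median ratios of the retained sites were 0.631 for endothelial, 0.650 for fibroblast, 0.695 for TGF-beta, BMP and Wnt and 0.595 for calcium handling genes. How far the mix of cells in the tissue bears on these shares was not tested, and a CHD4 site in a marker gene does not measure its expression.

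In the remaining lists shares varied. Broad transcription factors, with Nfia, Foxp1 and Rora, kept 307 of 602 (51.0%), and cardiac transcription factors 86 of 208 (41.3%), where Meis1 kept 8 of 12. Intercalated disc and adhesion genes kept 136 of 276 (49.3%), with 18 of 23 in Tns1, a tensin of focal adhesions, and 13 of 24 in Magi1. RNA splicing and binding genes kept 188 of 406 (46.3%), metabolic regulators 117 of 253 (46.2%), with 21 of 37 in the receptor Igf1r, and cyclic AMP and kinase signalling 150 of 354 (42.4%), with 25 of 49 in Prkce, a protein kinase C. Chromatin regulators kept 60 of 164 (36.6%), where Arid1b, a subunit of the BAF remodelling complex, kept 18 of 35 and the histone deacetylase Hdac4 10 of 32. The atrial identity list kept 50 of 131 (38.2%), and 29 of the 50 were in Itga9. Many of its best known genes are too short to hold a site 10 kb from both ends, and 5 of its 23 genes had any retained site. The neuronal and Schwann list kept 8 of 32 (25%, Wilson 13.3% to 42.1%). Smooth muscle and pericyte genes kept 2 of 15 (13.3%, 3.74% to 37.9%). Both intervals lay below the share of all intragenic sites, so lists outside cardiomyocytes went both ways. Without Abcc9 the smooth muscle and pericyte list kept 2 of 7 (8.22% to 64.1%), an interval that holds the share of all. Immune genes kept 1 of 2, skeletal muscle genes 2 of 2 and housekeeping genes 1 of 3, too few to describe.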

How the data were processed

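CHD4 ChIP-seq peak lists of 4 libraries were used. Per the submitters' processing notes, MACS2 and DiffBind were used, with build mm10. Alignment, read filtering and caller parameters: not given in the sources used here. Replicates were called separately, 1 list to a library. The authors' values per peak are a score, a fold ratio of pileup over local background, and −log10 p and −log10 q. The score in the deposited lists was −log10 q times 10, cut to a whole number, in at least 99.96% of peaks, and the lowest −log10 q was 1.30 to 1.31. Lists held 99924 and 91520 peaks in control and 61173 and 69557 in TBX5 KO, and read totals are unknown.

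Pileup and local background were recovered from the authors' fold, taken as pileup plus 1 over background plus 1, and −log10 p under the caller's Poisson model. Pileups were whole numbers, within 0.02, for at least 99.998% of peaks in any list and at every retained intragenic site. The commonest local background of a list served as its genome background, and enrichment is pileup over it. Where a site held several peaks of a list, the one with the highest −log10 p was used. These levels are estimates set side by side between libraries called separately.

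Gene ends came from a RefSeq table of GRCm38.p6 with 21900 protein-coding genes, and starts, start windows and microRNA hairpins from RefSeq tables of the same assembly. No genome was used here, so exon or intron, sequence composition and the planned motif search within sites were not analysed; the search of start windows was added. Merging, placement and recovery were tested on simulated data. Python 3.11.15, numpy 2.4.6, scipy 1.17.1 and pandas 2.3.3 were used.

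Named genes were the 12 hosts with the most sites, the 10 strongest sites, the 6 highest and 6 lowest ratios among sites above the median control enrichment, up to 3 genes a list, the 5 highest and 5 lowest retained shares among genes with at least 8 control sites, and Tbx5, Chd4, Gata4, Gata6, Ryr2, Pam, Fgf12, Cacna1c, Tead1, Mef2a, Prdm16 and Ppargc1a. Tmem108, Rgs6, Slco3a1, Ptprm, Ahnak, Tek, Ttn, and the microRNA hosts were named after their values were seen, as were the site counts of Corin and Erbb4. The same holds for Flt1, Pecam1, Npr3, Cdh5, Vwf, Notch1, Bmpr1a, Ror2, Smad2 and Lrp5. Some genes that this rule names are not reported here. The sites and gene lists were chosen with earlier results of these data known. As alternatives, calls were restricted to −log10 q of at least 3, then 5, and lists were cut to equal length; others were another overlap, distance or width limit, leaving out each library, exchanged groups, the authors' fold in place of enrichment, pairing by replicate number and, added after the data were seen, each gene list without the host with the most control sites.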

Additional observations from a re-analysis of the deposited data

How the results depend on the processing

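Call thresholds set the counts. Most settings kept the number of sites and of hosts within 1.5 times; at −log10 q of at least 5 the number was 5683, with 5200 below control and 762 in list genes. The retained share (45.8%) was 43.0% and 37.4% at −log10 q of at least 3 and 5, 59.6% in lists of equal length, 46.7% with an overlap of 50%, 40.7% with summits within 250 bp, 43.8% without control peaks of 3000 bp or more and 46.5% with no width limit. Leaving out 1 library gave 32.2% (without control replicate 2) to 61.2% (without TBX5 KO replicate 1), numbers of 11684 to 14546, ratios of 0.657 to 0.685, counts below control of 10405 to 13285, hosts of 2949 to 3348, list genes' sites of 1644 to 2061, and median widths, averaged over a group's libraries, of 900 to 1050 bp in control and 541 to 645.5 bp in TBX5 KO. The ratio (0.666) was 0.632 at −log10 q of at least 5, 0.637 in lists of equal length and 0.735 with the authors' fold over local background, where 7534 sites lay below control. Pairing by replicate number (replicate block) gave 0.670 and 9766 sites lower in both pairs. Control width averaged in this way (1019.75 bp) was 1121.25 and 1295.5 bp at −log10 q of at least 3 and 5 and 1136 bp in lists of equal length; TBX5 KO width (642.5 bp) was 868.5 bp at −log10 q of at least 5. With groups exchanged, as the genotype and treatment labels have them, the ratio was 1.51, the share 91.8%, the widths 652.5 and 1042 bp and the count below control 80. Sites with a host start numbered 265 at 20 kb from gene ends, where fewer sites can qualify, and 340 to 566 under the other settings other than leaving out a library; this count was added after the data were seen. Of 285 list counts under 15 settings of calls, place, width and libraries 252 were within 1.5 times, as were 14 of 19 without the host with the most control sites. The causes of the other differences were not tested. Sites of low pileup near the call threshold limit what a missing call shows.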

Other observations

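Hairpins of 15 microRNAs listed in RefSeq lay in retained intragenic sites. Mir26a-1 lay in a site of Ctdspl, a phosphatase gene, with pileups of 58 and 59 in control against 40 and 58 in TBX5 KO, a ratio of enrichment of 0.703. Mir199a-2 lay in a site of Dnm3, a dynamin, with 75 and 47 in control against 45 and 52 in TBX5 KO. Mir1904 lay in a site of Pde4d, a cyclic AMP phosphodiesterase, with 84 and 74 in control against 40 and 58 in TBX5 KO. At all 3 the enrichment of both TBX5 KO libraries was below that of both controls, and the same held at 10 of the 15, against 88.1% of all autosomal sites of all 4 lists. The highest ratio among the 15 was at Mir6999 in Dgkz, at 1.002. A site over a hairpin does not measure the microRNA.

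Some sites met the rule apart from 1 limit. On autosomes 319 sites had a control peak of 5000 bp or more. Their median enrichments were 10.8 and 10.03 in control against 5.52 and 5.44 in TBX5 KO, and their median ratio was 0.535. Ttn held 11 of them, Tns1 held 8, and Rbm20, a splicing factor of titin, held 7. On chromosome X 191 intragenic sites were called in both control lists, and 41 (21.5%) were also called in both TBX5 KO lists, with a median ratio of 0.589. On autosomes the share was 45.8% and the median ratio 0.666. The number of X copies in each library was not taken into account, and the difference was not tested.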
